A study of Mus musculus with 2 samples.

Results

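The Mir344 cluster is a group of related microRNA genes on mouse chromosome 7 that is described as specific to rodents. Its members were the 9 genes of the deposited tables whose GENCODE names are Mir344, Mir344b, Mir344c, Mir344d-1, Mir344d-2, Mir344d-3, Mir344e, Mir344f and Mir344g, out of 1973 microRNA genes in all. They were measured by small RNA sequencing, limited to RNA under 30 nucleotides, in forebrain of healthy B6NCrl mouse embryos at embryonic day 13.5, with male and female tissue pooled. There was 1 group with no treatment and no engineered allele, and it had 2 libraries, named as biological replicates 1 and 2. The libraries carry separate biosample identifiers and 1 donor identifier, so the spread between them may in part be technical. Replicate 1 held 4117752 reads counted on microRNA genes and replicate 2 held 3908953, so that 1 count equals 0.243 CPM (counts relative to 1000000 gene counts) in replicate 1 and 0.256 CPM in replicate 2.

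A microRNA gene is transcribed as a longer precursor, from which a hairpin is cut and then a short duplex. Either strand of the duplex, the 5p or the 3p arm, can be loaded into an Argonaute protein, where it guides silencing of messenger RNAs. Target choice depends mostly on the seed, bases 2 to 8 of the mature arm, so genes with the same seed can share targets even where the rest of the arm differs. Clusters of this kind grow by duplication of hairpins. Duplicates can end in identical mature arms, and short reads of such arms cannot be assigned to 1 gene. The cluster lies next to imprinted genes of the region whose human counterpart is affected in Prader-Willi syndrome.

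The mature 3p arms of the members are shown because their seeds divide the cluster and because some of them are identical between genes. Capitals mark the seed. All are RefSeq sequences on GRCm38.p6, and all 9 members matched an entry.
miR-344-3p: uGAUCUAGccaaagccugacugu
miR-344c-3p: uGAUCUAGucaaagccugacagu
miR-344d-3p: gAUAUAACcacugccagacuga
miR-344e-3p: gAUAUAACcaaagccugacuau
miR-344b-3p: cAUUUAGCcaaagccugacugu
miR-344f-3p: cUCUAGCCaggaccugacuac
miR-344g-3p: cAGGCUCUagccaggggcuuga

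The 9 members thus carry 5 different 3p seeds. Mir344 and Mir344c share GAUCUAG, and Mir344e shares AUAUAAC with the 3 Mir344d genes, which have 1 identical 3p arm among them. Mir344b, Mir344f and Mir344g each have an annotated 3p seed of their own within the cluster. The hairpins of Mir344f and Mir344g both hold the bases of UCUAGCC and of AGGCUCU. Their seeds differ because the annotated 3p arms begin at different bases of this shared stretch.

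The 5p arms were more alike in their seeds and less alike between the Mir344d genes, and they are shown for that contrast, again with the seed in capitals.
miR-344-5p: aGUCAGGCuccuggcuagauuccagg
miR-344b-5p: aGUCAGGCuccuggcuaaaguuc
miR-344c-5p: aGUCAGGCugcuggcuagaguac
miR-344g-5p: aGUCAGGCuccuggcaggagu
miR-344d-1-5p: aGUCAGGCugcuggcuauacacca
miR-344d-3-5p: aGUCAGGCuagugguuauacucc
miR-344d-2-5p: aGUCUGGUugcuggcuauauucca
miR-344f-5p: aGUCAGUCuccuggcuggaguc
miR-344e-5p: cAGGCUUCuggcuauauucc

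Of the 9 members, 6 share the 5p seed GUCAGGC, and Mir344d-2, Mir344f and Mir344e have other ones. The Mir344e hairpin also holds the bases of GUCAGGC, but its annotated 5p arm begins further on. The octamer AGTCAGGC, which overlaps that seed, stands in the gene-strand sequence of 7 of 9 members and of 103 of all 1894 microRNA genes with a sequence (5.44%). Its reverse complement GCCTGACT, which lies in the opposite arm of a hairpin, stands in 3 of 9 members, Mir344, Mir344b and Mir344e, and in 6 of the 1894 (0.317%). Both were searched after the sequences had been seen, and annotated genes differ in length.

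The members span 363 kb, from Mir344d-1 (chr7:61683124-61683192) to Mir344f (chr7:62046181-62046248) on mm10, and all are on the minus strand. The gaps between neighbouring members had a median of 43.8 kb and ran from 2.08 kb, between Mir344d-1 and Mir344d-2, to 104 kb. In the later annotation used for positions, GENCODE M21, Mir344d-3, Mir344e, Mir344b, Mir344c and Mir344 lie in introns of the long non-coding gene A230057D06Rik on the same strand. Mir344g overlaps an exon of the non-coding transcript A330076H08Rik, also on the same strand. Mir344d-1, Mir344d-2 and Mir344f lie between genes. Beyond Mir344f, the imprinted gene Ndn, which encodes the neuronal protein necdin, begins 300.3 kb away, followed by Magel2 at 331 kb and Mkrn3 at 371 kb.

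Reads of the cluster were few. The members together had 137 counts in replicate 1, which is 0.00333% of gene counts, with Wilson bounds at 95% of 0.00281 and 0.00393. In replicate 2 they had 109 counts, which is 0.00279%, with bounds of 0.00231 and 0.00336. Their sum was 30.6 ± 3.81 CPM (SD, n = 2 libraries, as for all such values). For scale, the single liver marker Mir122 held 0.00560% ± 0.000464 of the gene counts and a list of 7 measured muscle genes 0.00466% ± 0.000762, both above the sum of the Mir344 members in each library. Of the 7 muscle genes, 3 were detected and 4 had 0 counts in both libraries. The sum of the Mir344 members covers reads counted on genes, and it would miss any reads of the members among those that mapped to several places. The same limit holds for the muscle list. Whether there were such reads was not tested. In tissue of many cell types, few expressing cells and little RNA in each cell cannot be told apart.

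Of the 9 members, 4 were detected, meaning 10 or more counts in replicate 1 and also in replicate 2, and 19.1% of all genes in the tables met that rule. Among the 916 genes with a RefSeq mature sequence, which include all 9 members, 37.2% met it. The detected members were Mir344f, Mir344c, Mir344e and Mir344b. Mir344g had counts in both libraries and missed the rule. Mir344, Mir344d-1, Mir344d-2 and Mir344d-3 had 0 counts in both libraries, which allows up to 3 counts, or 0.729 CPM in replicate 1 and 0.767 CPM in replicate 2. This limit holds for reads counted on genes only and does not cover any reads that mapped to several places. Opposite-strand reads numbered 0 at all 9 members in both libraries.

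**Figure D1:**
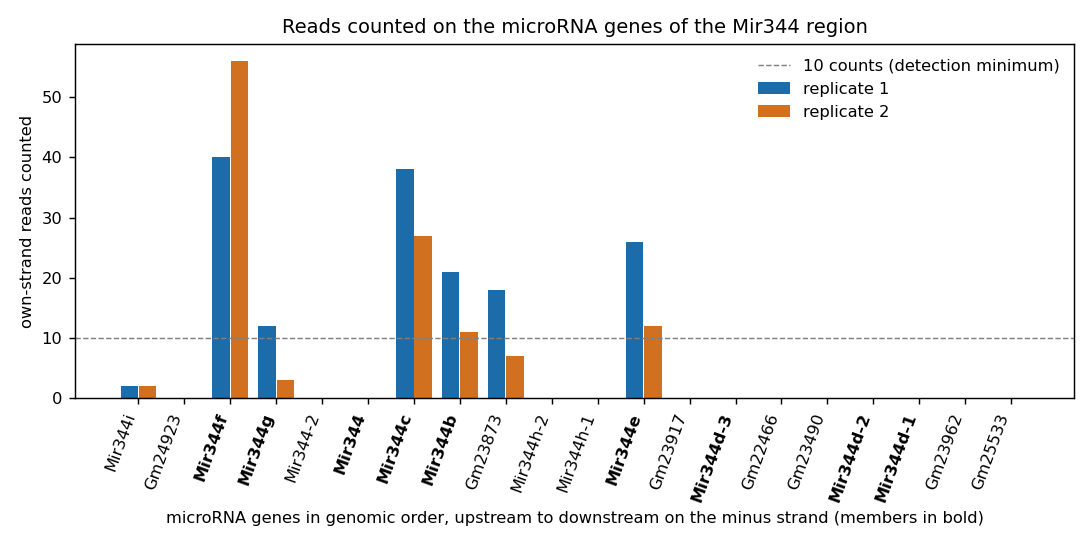
Reads counted on the strand of the gene (y axis) for the 20 microRNA genes of the region in genomic order along the minus strand (x axis), with 1 bar for each library and the 9 members in bold. Mir344f had 40 counts in replicate 1 and 56 in replicate 2, and the Mir344d genes and Mir344 had 0.

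Mir344f led the cluster. It had 40 counts (9.71 CPM) in replicate 1 and 56 counts (14.3 CPM) in replicate 2, a mean of 12.0 ± 3.26 CPM. This placed it at rank 296 of 1973 genes by mean CPM. Its share of the members' counts was 29.2% in replicate 1, with Wilson bounds at 95% of 22.2 and 37.3, while in replicate 2 it was 51.4%, with bounds of 42.1 and 60.6. Its own hairpin, with the 3p arm in capitals, is that of the gene with the most reads here.
Mir344f: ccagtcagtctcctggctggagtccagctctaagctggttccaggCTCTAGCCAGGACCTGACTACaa

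Mir344c followed with 38 counts (9.23 CPM) in replicate 1 and 27 counts (6.91 CPM) in replicate 2, or 8.07 ± 1.64 CPM, at rank 319. In replicate 1 it stood 2 counts below Mir344f, and in replicate 2 it had less than that gene by a wider margin, so that the library ranges did not overlap. It is the member without an exact stretch of 20 or more bases in any other annotated microRNA transcript.

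Mir344e had 26 counts (6.31 CPM) in replicate 1 and 12 counts (3.07 CPM) in replicate 2, or 4.69 ± 2.29 CPM. Mir344b had 21 counts (5.10 CPM) in replicate 1 and 11 counts (2.81 CPM) in replicate 2, or 3.96 ± 1.62 CPM. Mir344e stood above Mir344b in both libraries, but their library ranges overlapped and their means differed by less than either SD. Mir344g had 12 counts (2.91 CPM) in replicate 1 and 3 counts (0.767 CPM) in replicate 2, or 1.84 ± 1.52 CPM, and its range overlapped that of Mir344b.

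The order Mir344f, Mir344c, Mir344e, Mir344b, Mir344g was the same in both libraries and when counts were divided by the length of the annotated gene. Mature arms are of nearly equal length, so counts were not divided by length otherwise. Between the highest and the lowest detected member the mean levels spanned 3.04-fold, with 1.90-fold in replicate 1 and 5.09-fold in replicate 2. The counts do not separate the arms, so the arm that the reads came from is not known.

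**Figure D2:**
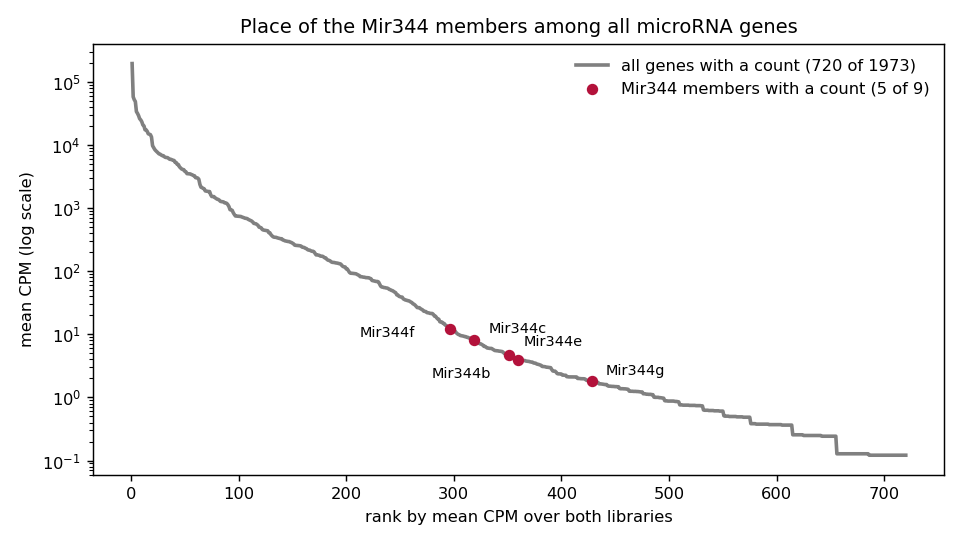
Mean CPM over both libraries on a log scale (y axis) against rank (x axis) for the 720 genes with a count, with the 5 counted Mir344 members as points. The members stand between rank 296 (Mir344f) and rank 428 (Mir344g), in the lower part of the curve.

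The genes closest to Mir344f in level were Mir218-1 (13.2 ± 0.924 CPM) and Gm23134 (13.2 ± 2.69 CPM) above it, and Mir7654 (12.0 ± 2.20 CPM) and Mir3062 (11.7 ± 3.78 CPM) below it. They were picked for the ratio of mean CPM over both libraries alone, and all 4 lay within the SD of Mir344f. Mir218-1 is 1 of the miR-218 genes, which sit in Slit gene introns and are known from motor neurons.

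By seed, the reads on members fell as follows. The 4 members with the 3p seed AUAUAAC had 26 counts in replicate 1 and 12 in replicate 2, all of them on Mir344e. The pair with GAUCUAG had 38 and 27, all on Mir344c. In both of these seed groups the counted gene was the one whose 3p arm stands in no other annotated microRNA gene.

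The seed AUAUAAC is not particular to chromosome 7. It is also the 3p seed of Mir410, a gene of the imprinted Dlk1-Dio3 region on chromosome 12, whose mature arm is shown for comparison with miR-344d-3p and miR-344e-3p above.
miR-410-3p: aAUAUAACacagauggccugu

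Mir410 had 538 counts in replicate 1 and 518 in replicate 2, or 132 ± 1.32 CPM, at rank 194. Mir344e as the counted member with this seed had 4.69 ± 2.29 CPM, and the library ranges of both genes were far apart. These are levels of whole genes, since the counts do not separate the 3p arm from the 5p arm. Whether reads of the Mir344d genes, which carry the same seed, went uncounted was not tested. Mir7070 shares the 3p seed AGGCUCU with Mir344g and had 8 counts in replicate 1 and 9 in replicate 2, against 12 and 3 for Mir344g. Apart from Mir410, Mir7070 and other Mir344 genes, no gene of the tables with a RefSeq mature sequence shared a seed with a member.

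The 4 members at 0 were those whose whole 3p arm recurs in another gene, while recurring 5p arms and shorter shared stretches were not limited to them. The 3p arm of Mir344 is identical in Mir344-2, a further family gene in an intron of A330076H08Rik, and the 5p arm is identical there too. The 3p arm of the Mir344d genes occurs whole in 5 genes of the region, the 3 Mir344d members and the unnamed genes Gm23962 and Gm23490. The 3p arms of the other 5 members occur in no other annotated microRNA transcript, and these are the 5 members with counts. The 5p arm of Mir344e, however, occurs whole in Mir344h-1 and Mir344h-2, yet Mir344e was counted in both libraries. Among the counted members, Mir344b, Mir344e, Mir344f and Mir344g also share an exact stretch of at least 20 bases with other genes. The hairpins of Mir344 and Mir344-2 are shown, with the shared 3p arm in capitals, beside that of Mir344c, which has counts.
Mir344: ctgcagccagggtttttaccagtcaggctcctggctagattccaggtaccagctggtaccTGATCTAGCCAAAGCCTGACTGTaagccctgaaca
Mir344-2: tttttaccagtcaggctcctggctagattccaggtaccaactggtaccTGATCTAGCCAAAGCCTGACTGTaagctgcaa
Mir344c: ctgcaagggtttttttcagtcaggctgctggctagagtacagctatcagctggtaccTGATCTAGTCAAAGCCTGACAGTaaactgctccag

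Reads that mapped to several places were deposited as a separate total, not by gene: 4315754 reads in replicate 1 (40.6% of all reads) and 4589546 in replicate 2 (43.9%). Whether reads of Mir344 and the Mir344d genes are among them was not tested, so 0 counts at these genes do not show that they were not expressed. The 5p arms of Mir344d-1, Mir344d-2 and Mir344d-3 each stand in no other annotated transcript, and these genes had 0 counts nonetheless. In the whole table, of 40 genes with a 3p arm that recurs in another gene, 14 were detected (35.0%) and 21 had 0 counts in both libraries (52.5%). Of 581 genes with a 3p arm in no other gene, 292 were detected (50.3%) and 93 had 0 counts (16.0%). With either arm considered, the detected shares stood the other way: of 102 genes with at least 1 recurring arm, 46 were detected (45.1%) and 44 had 0 counts (43.1%), and of 814 genes with none, 295 were detected (36.2%) and 262 had 0 counts (32.2%). These divisions were made after the members' counts had been seen, and they include the members.

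The other microRNA genes of the region gave few reads as well. Within 1 megabase of the members the tables hold 11 more microRNA genes, of which 4 have a Mir344 symbol (Mir344-2, Mir344h-1, Mir344h-2 and Mir344i) and 7 have no family name. Of these 11, Mir344i had 2 counts in each library and Gm23873 had 18 counts in replicate 1 and 7 in replicate 2 (3.08 ± 1.82 CPM). The other 9 had 0 counts in both. Gm23873 lies in an intron of A230057D06Rik between Mir344h-2 and Mir344b, and its level overlapped those of Mir344b and Mir344e. Its sequence, shown because it was the unnamed gene with reads, aligned best to Mir344 among the members, with 87.1% of its bases identical.
Gm23873: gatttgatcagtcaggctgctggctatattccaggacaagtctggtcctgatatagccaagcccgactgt

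The hairpins most alike were mostly close to each other on the chromosome. Over the 36 pairs of members the median identity was 76.2% of the shorter hairpin, and it ran from 63.4%, between Mir344d-2 and Mir344g, to 92.8%, between Mir344d-1 and Mir344d-3. Mir344f and Mir344g, the most upstream members, were 89.7% identical. Mir344c and Mir344, also neighbours, were 84.8% identical. Likeness did not always follow position. Mir344b and Mir344, with Mir344c between them, were 87.3% identical. The neighbours Mir344e and Mir344b were 77.8% identical, and Mir344 and Mir344g 76.1%. The unnamed genes aligned to a member at 86.4% (Gm25533 with Mir344e) to 94.2% (Gm23962 with Mir344d-1), so all 7 are related to the members in sequence. Mir344h-1 and Mir344h-2 were identical over their whole length and had 0 counts.

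**Figure D3:**
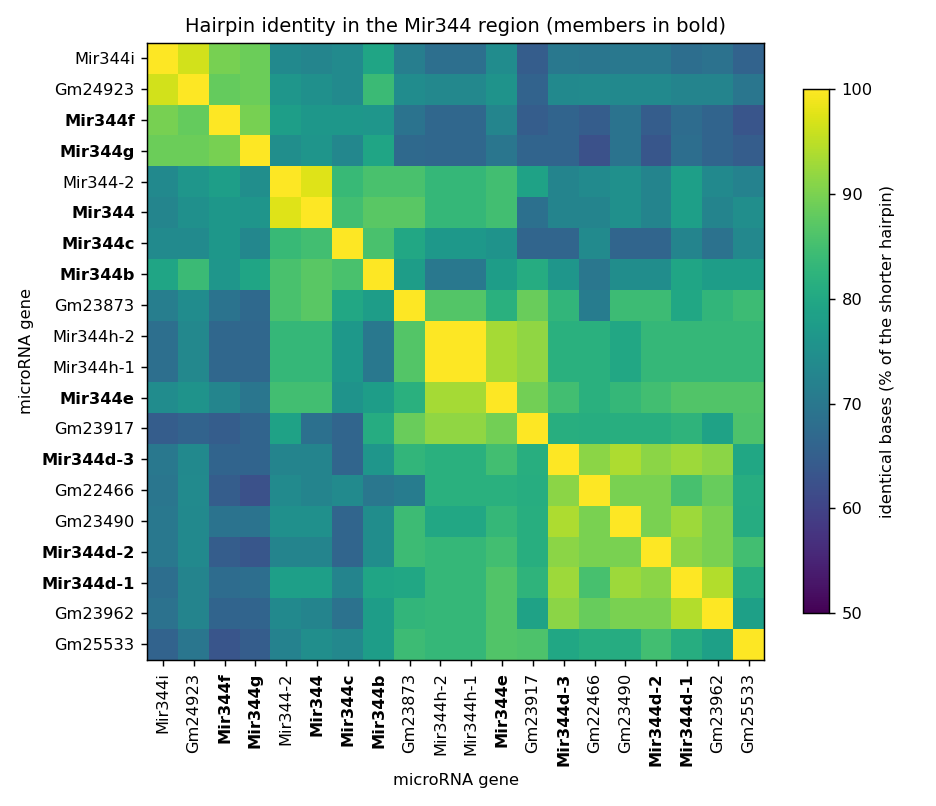
Identical bases as a percentage of the shorter hairpin (colour) for all pairs of the 20 microRNA genes of the region, in genomic order along the minus strand on both axes, members in bold. Bright blocks along the diagonal join neighbours such as Mir344f with Mir344g (89.7%) and the Mir344d genes (91.3% to 92.8%).

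Between the libraries, 0 of the 5 members with at least 10 counts in both together passed the two-sided exact binomial test on TMM-scaled counts at an adjusted p under 0.05, against 38.9% of the 475 genes tested. At an unadjusted p under 0.05 there were 2 of 5, against 45.1% of all tested genes. The test compares these libraries and not conditions. It covers counting error only, and the wide intervals below show what sizes it leaves possible.

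The members did not all lean the same way. Mir344f had fewer reads in replicate 1, with a log2 ratio of replicate 1 over replicate 2 of -0.66 (exact 95% interval -1.29 to -0.06, exact binomial p = 0.0246, adjusted p = 0.0612). Mir344g had more, at 1.65 (-0.07 to 4.28, exact binomial p = 0.0406, adjusted p = 0.0941). Mir344e stood at 0.90 (-0.11 to 2.05), Mir344b at 0.72 (-0.37 to 1.95) and Mir344c at 0.30 (-0.44 to 1.08), with exact binomial adjusted p-values of 0.152, 0.365 and 0.616. The ratio was thus above 0 for 4 of 5 members, against 48.2% of all tested genes, and the median was 0.72, against -0.02 over all tested genes.

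**Figure D4:**
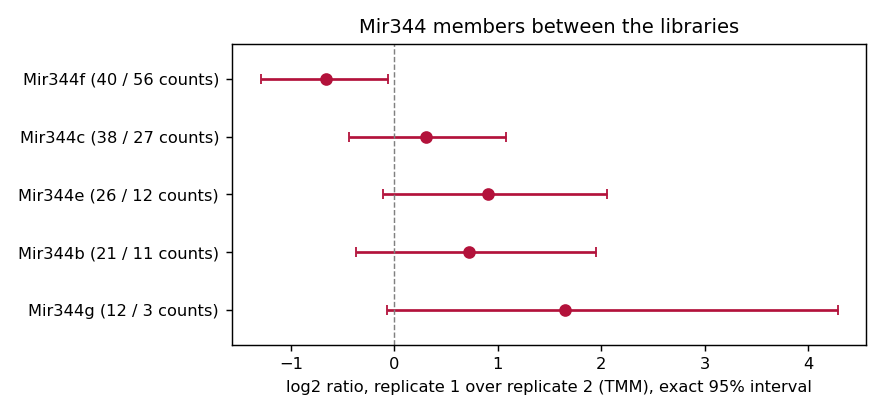
The log2 ratio of replicate 1 over replicate 2 (x axis) for the 5 tested members (y axis, with their counts in replicate 1 and replicate 2), with exact 95% intervals. The interval of Mir344f lies below 0, from -1.29 to -0.06, and the other 4 intervals include 0.

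The Mir344 members were set beside another repeated rodent cluster and beside a large imprinted region, both defined by position. The microRNA genes inside Sfmbt2 on chromosome 2 numbered 107, of which 10 were detected (9.35%) and 83 had 0 counts in both libraries. Their median was 0 CPM, against 1.84 CPM over the 9 Mir344 members. The medians are of unlike sets, because the position rule takes in unnamed genes and the Mir344 members were chosen by name. In the Mir344 region, the 4 other Mir344 genes and the 7 unnamed genes also had medians of 0 CPM. The sum of the Sfmbt2 genes was 0.384% ± 0.0127 of the gene counts, against 0.00306% ± 0.000381 for the Mir344 members. Mir467c, the highest of the Sfmbt2 genes, had 1210 ± 33.0 CPM and by itself exceeded the sum of all Mir344 members in both libraries. Of the Sfmbt2 genes 105 had a copy, an exact stretch of 20 or more bases in another annotated microRNA transcript, as had 8 of the 9 Mir344 members.

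The 59 microRNA genes between Dlk1 and Dio3 on chromosome 12 had 47 detected members (79.7%) and a median of 139 CPM. Their sum was 6.82% ± 1.00 of the gene counts, and Mir487b led with 16517 ± 3870 CPM. Of these genes 7 had a copy. Over all 1973 genes the median was 0 CPM and 63.5% had 0 counts in both libraries, against 4 of 9 Mir344 members (44.4%). The full set of genes also includes unnamed ones. In the Mir344 region, 3 of the 4 other Mir344 genes and 6 of the 7 unnamed genes had 0 counts in both libraries. Among the 916 genes with a RefSeq mature sequence, which include all 9 members, the share with 0 counts was 33.4%, below that of the members. Sums depend on the number of genes, and these are descriptions of 2 libraries with no test between clusters.

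**Figure D5:**
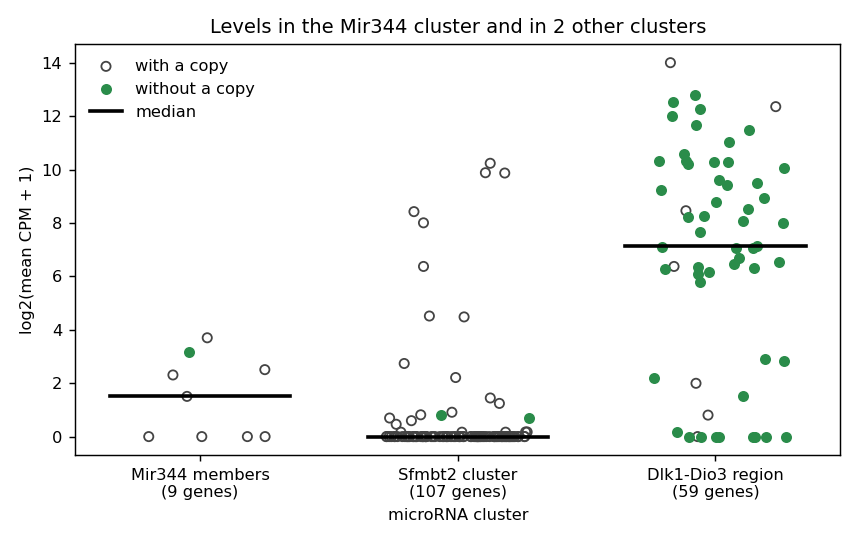
log2 of mean CPM plus 1 (y axis) for the genes of the Mir344 cluster, the Sfmbt2 cluster and the Dlk1-Dio3 region (x axis), with open circles for genes with a copy, filled circles for genes without and a black line at the median. The Mir344 members reach 12.0 CPM, while Mir467c of the Sfmbt2 cluster reaches 1210 CPM and Mir487b of the Dlk1-Dio3 region 16517 CPM.

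The tissue label was checked on marker genes. The neural list held 11 genes, namely the Mir9, Mir124a and Mir128 genes, Mir137, Mir92b and Mir153. Of these, 10 were measured and 8 were detected, and 0 of those measured had 0 counts in both libraries. The measured neural genes held 2.54% ± 0.262 of the gene counts. Lists for other tissues and cell types ranged from 0.00466% ± 0.000762 (muscle) to 1.74% ± 0.197 (endothelial Mir126a). How much the cell types other than neural ones contributed to the Mir344 counts was not tested.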

How the data were processed

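The authors deposited whole-number counts of reads per microRNA gene, 1 table for each library, without normalization. Per the read-me texts deposited with them, the build is mm10 and the annotation GENCODE M4. Aligner and counter were not given in the sources used here. Own-strand counts were used. Summary rows, which hold reads not counted on a gene (61.3% of reads in replicate 1, 62.6% in replicate 2), were left out of library sizes.

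Names and positions came from GENCODE M21 on the same build (1894 of 1973 identifiers matched, and the other 79 held 1 count in replicate 1 and 4 in replicate 2). Mature sequences came from RefSeq. A copy is an exact stretch of at least 20 bases shared with another annotated microRNA transcript, in either orientation. Identity came from global alignment with free end gaps (Biopython 1.88, match 1, mismatch -1, gap opening -2, extension -0.5), and folding energy from RNAfold 2.7.2.

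CPM, SD over 2 libraries and log2 ratios with a prior count of 0.5 were computed from the deposited counts. TMM factors came from edgeR 4.0.16 in R 4.3.3, and an alternative used DESeq2 1.42.0 size factors. With 1 group no edgeR test between groups exists, so each gene's counts in the libraries were compared by a two-sided exact binomial test (scipy 1.17.1), Benjamini-Hochberg adjusted over genes with at least 10 counts in both together. The test was tried on simulated counts with counting error only, so the simulation does not bear on the larger spread between these libraries. Its known fold changes were planted in genes with more counts than Mir344e, Mir344b and Mir344g. The libraries differed beyond sampling noise (chi-square 32540 on 376 degrees of freedom over detected genes). Intervals and limits cover counting error only, since amplified reads are not independent molecules.

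Named genes were all members, the other family genes, genes sharing a seed with a member, microRNA genes within 1 megabase, the 2 genes next above and below the leading member in mean CPM, and the highest gene of each cluster. The members, lists and tests were chosen with earlier results of these data known. Gm23873 and the AGTCAGGC search were singled out after values or sequences were seen.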

Additional observations from a re-analysis of the deposited data

How the results depend on the processing

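At the depth of these libraries 1 count moves a member by 0.243 CPM in replicate 1 and 0.256 CPM in replicate 2, so levels under 10 counts carry little weight. No paired analysis was possible because there is 1 group. The number of members passing the exact binomial test stayed at 0 with DESeq2 size factors, library totals, no filter on low counts and counts on either strand. In each, 2 members had an unadjusted p under 0.05, but not always the same ones. With library totals they were Mir344e and Mir344g (exact binomial adjusted p = 0.0806 and 0.0808), while Mir344f stood at an adjusted p of 0.138. The log2 ratios of the 5 tested members kept their direction and side of the threshold with the DESeq2 size factors, library totals and a prior count of 2. Relative to all reads the members' share was 0.00117% and with members without a copy, Mir344c alone, 0.000807%. With all 13 Mir344 symbols or all 20 microRNA genes of the region, both chosen after seeing the data, the share stayed within the replicate SD. With at least 50 counts in each library 0 members were detected, and with at least 1 count 5. Without genes that have a copy, the median CPM was 8.07 for the Mir344 cluster (1 gene), 0.678 for the Sfmbt2 cluster (2 genes) and 171 for the Dlk1-Dio3 region (52 genes); the cause was not tested. Leaving out 1 library at a time, the members' share was 0.00279% to 0.00333%, the share of Mir344f among them 29.2% to 51.4%, the range of detected members 1.90-fold to 5.09-fold, the members' median 0.767 to 2.91 CPM and the Dlk1-Dio3 median 133 to 167 CPM.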

Other observations

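The predicted folding energy of the annotated member hairpins ran from -32.9 kcal/mol (Mir344d-1) to -56.8 kcal/mol (Mir344). The 4 members with 0 counts spanned this whole range, with Mir344d-2 at -37.6 and Mir344d-3 at -45.2 kcal/mol, and the 5 members with counts lay inside it, from -34.4 (Mir344b) to -43.5 kcal/mol (Mir344g). Among the other microRNA genes of the region the energies of Gm22466 (-20.7 kcal/mol) and Gm25533 (-23.0 kcal/mol) were the weakest, and both had 0 counts. Genes there with stronger predicted folds, such as Gm24923 (-54.2 kcal/mol) and Mir344-2 (-46.4 kcal/mol), had 0 counts as well. GC content of the members ran from 45.0% (Mir344d-2) to 62.0% (Mir344g). Annotated lengths differ, from 63 bases for Mir344b to 95 bases for Mir344, and folding energy depends on length, so these values describe the annotated sequences.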
